A study of Caenorhabditis elegans with 6 samples.

Results

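The TOR pathway genes examined here were 7 genes fixed by name: *let-363*, *daf-15*, *rict-1*, *rsks-1*, *raga-1*, *ragc-1* and *rheb-1*. All 7 were found by symbol among the 20191 protein-coding genes, and the 46904 genes of every kind, for which the authors deposited expected counts. The libraries came from whole *Caenorhabditis elegans* dauer larvae, the non-feeding, stress-resistant stage that larvae enter in poor conditions. Control larvae carried *daf-7(e1372)*, a temperature-sensitive allele that drives dauer entry (strain CB1372), and *daf-16(0)* larvae carried *daf-16(mgDf50); daf-7(e1372)*. Both genotypes thus lack normal *daf-7*, the TGF-beta ligand of the dauer pathway, and *mgDf50* is a deletion of most of the coding sequence of *daf-16*, the worm FOXO transcription factor. The strain field of the labels names the *daf-16(0)* strain VT2127 and the growth text names it VT2317. Embryos of both strains were kept for 52 h at 24°C, and only larvae that had become dauers were taken, by hand, since part of the *daf-16(0)* population does not. There were 3 libraries per genotype. The labels place control replicates 1 and 2 in the deposited comparison together with replicates 2 and 3 of *daf-16(0)*, called the 4 libraries below. *daf-16(0)* replicate 1 and control replicate 3 were outside it, and their values are given throughout.

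TOR is a kinase that couples nutrients and growth signals to protein synthesis and autophagy. It works in a pair of complexes that share the kinase, LET-363 in the worm. TORC1 contains DAF-15, the worm Raptor, and is called to the lysosome by Rag GTPases when amino acids are present and switched on there by the GTPase RHEB. TORC2 contains RICT-1, the worm Rictor, and acts on kinases such as SGK-1. *daf-15* was named for its mutants, which arrest as dauer-like larvae, and it is known as a gene that DAF-16 regulates.

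Counts on protein-coding genes ran from 8103772 to 17808548 per library, and ribosomal RNA took 0.0599% to 8.64% of the expected counts. Levels are given as CPM, counts scaled to the size of the library with its normalization factor. *daf-16* itself was at 317 ± 106 CPM in the controls and 48.9 ± 12.7 CPM in the deletion strain (SD, n = 3 each), without overlap. Control replicate 3 stood apart on the second principal component of all genes, at 138 against -67.9 to 12.7 for the other 5 libraries. The 2 dauer collagens *col-2* and *col-40* summed to 9228 to 37838 CPM in control and to 15.7 to 1664 in *daf-16(0)*. Both were called lower in the 4 libraries but 0 in all 6, where 9.59% and 7.39% of all genes were. The 6 yolk genes summed to 124 and 322 CPM in control replicates 2 and 1, to 18356 in control replicate 3, and to between 13848 and 25621 in *daf-16(0)*. All 6 were called higher in the 4 libraries and 0 in all 6 libraries, where 5.37% and 5.08% of all genes were. The 31 major sperm protein genes summed to 5.24 to 25.5 CPM in control, with 10 to 25 of them at 0, and to 133 to 699 in *daf-16(0)*, with 2 at 0 in each library. Of these, 11 of 27 tested were called higher in the 4 libraries and 18 in all 6, where 5.37% and 5.08% of all genes were. The 10 oocyte genes summed to 52.1 to 1494 CPM in control and 167 to 2144 in *daf-16(0)*, with 4 at 0 in control replicate 2. Of these 0 were called in either set, where 15% and 12.5% of all genes were. The 6 germ line genes summed to 114 to 459 and 370 to 789 CPM, overlapping between genotypes. Of them 1 was called higher in the 4 libraries and 0 in all 6, where 5.37% and 5.08% of all genes were. What part these differences play in the values below was not tested.

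The 7 genes were all well counted, with 127 to 2357 whole counts per library, and none of them passed the test between genotypes. In the 4 libraries 0 of 7 had an adjusted p of at most 0.05 (edgeR quasi-likelihood test, adjusted over 13536 genes), where 15% of all genes tested were called (5.37% higher and 9.59% lower in *daf-16(0)*). In all 6 libraries the count was again 0 of 7, against 12.5% of 13633 genes (5.08% higher and 7.39% lower). At an unadjusted p of 0.05 the count was 0 of 7 in either set, against 36% and 30.1% of all genes, and DESeq2 and limma also called 0. Fitted log2 differences, *daf-16(0)* minus control, ran from -0.38 (*rict-1*) to 0.49 (*ragc-1*) in the 4 libraries, with a median of 0.02 beside 0.11 for all genes. In all 6 libraries they ran from -0.19 (*rict-1*) to 0.42 (*ragc-1*), with a median of 0.26 beside 0.09. The 95% intervals reached from a fold of 0.449 to 2.30 in the 4 libraries. All 727 higher and 1298 lower genes called in the 4 libraries had an absolute log2 difference of at least 1, more than that fitted for any of the 7. A count of 0 called thus says little about differences as small as those fitted here. These are bulk libraries, in which fewer cells of a type and less RNA per cell cannot be told apart.

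**Figure D1:**
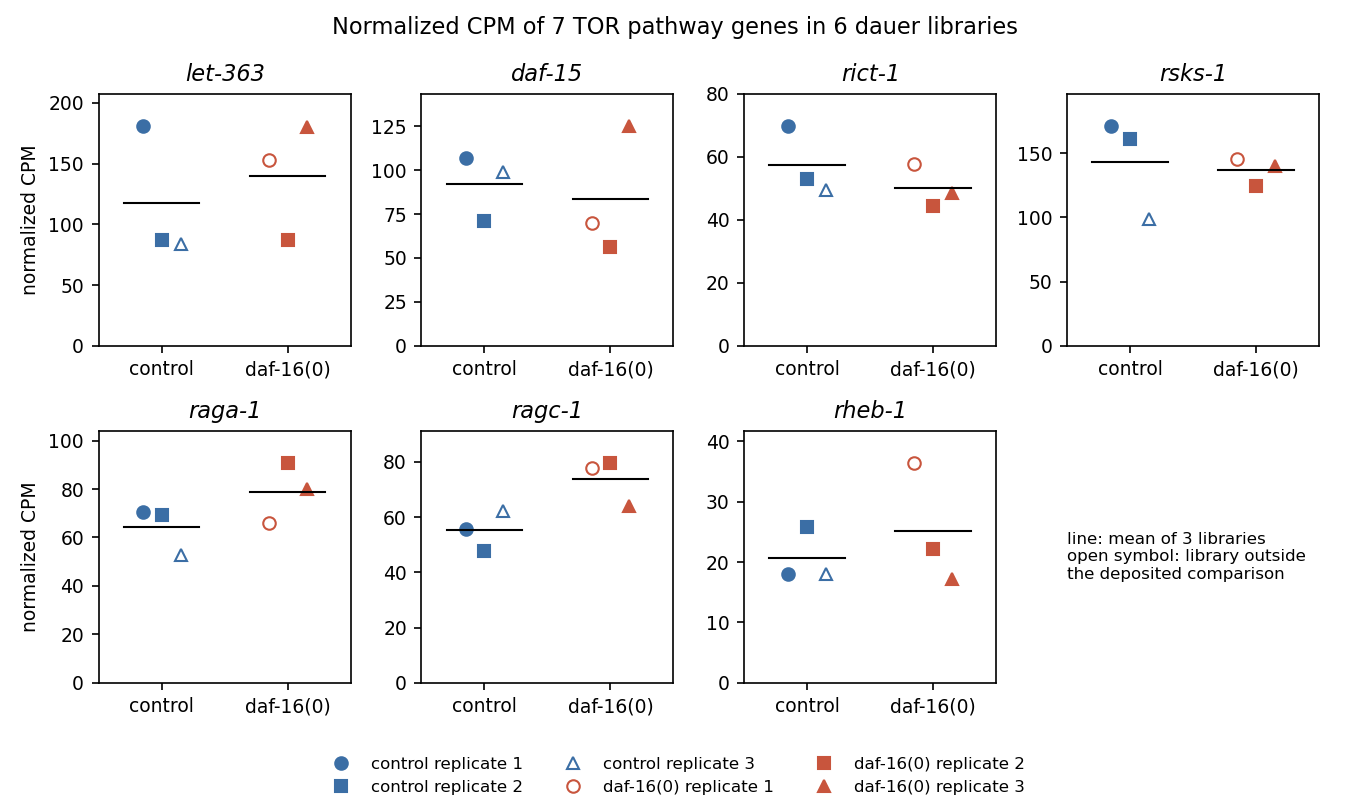
Normalized CPM (vertical axis, linear, from 0) of each of the 7 genes in the 3 control and 3 *daf-16(0)* libraries, with a line at each mean and open symbols for the libraries outside the deposited comparison. *ragc-1* alone shows no overlap of the genotypes over all 6 libraries, and *let-363* is split within each genotype.

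*let-363* encodes the TOR kinase, shared by both complexes (WBGene00002583, chromosome I of WBcel235, 5245743 to 5263413, forward strand, 32 merged exons in the Ensembl annotation of that build). Its level was 181, 87.1 and 83.7 CPM in control replicates 1 to 3 and 153, 87.3 and 180 CPM in *daf-16(0)* replicates 1 to 3. Each genotype held high and low libraries, 2.16 times apart in control and 2.06 times apart in *daf-16(0)*, and the genotypes overlapped. The means were 117 ± 55 in control and 140 ± 47.7 in *daf-16(0)* (SD, n = 3 each). The log2 difference was 0.02 in the 4 libraries (SE 0.49, adjusted p = 0.978 by edgeR) and 0.26 in all 6 (SE 0.42, adjusted p = 0.712). Which library is included sets its sign: of the 4 libraries, it was -0.56 without *daf-16(0)* replicate 3, -0.41 without control replicate 2, and 0.63 without control replicate 1.

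A pair of genes lie within the span of *let-363* on the opposite strand and share no exon base with it. *B0261.6* (chromosome I, 5255447 to 5256945) had 82, 74 and 19 counts in *daf-16(0)* replicates 1 to 3 and 0 in each control library. Its adjusted p was 0.0607 in the 4 libraries and 0.0345 in all 6 by edgeR. *B0261.5* (5249772 to 5250618) had 9 counts in *daf-16(0)* replicate 2 and 0 elsewhere, and was not tested. Both had far fewer reads than *let-363* itself, which had 764 or more counts in each library. Whether counting used the strand is not given in the sources used here.

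*daf-15* encodes Raptor, the subunit that defines TORC1 (WBGene00000911, chromosome IV, 9386208 to 9394930, forward strand, 20 merged exons). Control replicates 1 to 3 had 107, 71.1 and 98.9 CPM, and *daf-16(0)* replicates 1 to 3 had 69.8, 56.4 and 125 CPM. The lowest libraries were *daf-16(0)* replicates 1 and 2 and the highest was *daf-16(0)* replicate 3, so the mutant values bracketed the control values. Means were 92.3 ± 18.8 in control and 83.7 ± 36.3 in *daf-16(0)* (SD, n = 3 each). The difference was within this spread, with a log2 difference of 0.05 in the 4 libraries (SE 0.44, adjusted p = 0.946 by edgeR) and -0.14 in all 6 (SE 0.37, adjusted p = 0.827). The 95% interval in all 6 ran from -0.99 to 0.70, that is from a fold of 0.50 to 1.63. Without *daf-16(0)* replicate 3, the log2 difference was -0.61 in the remaining 3 of the 4 libraries and -0.55 in the remaining 5 of all 6, with adjusted p of 0.42 and 0.357.

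*rict-1* encodes Rictor, the TORC2 subunit (WBGene00009245, chromosome II, 13098249 to 13116806, reverse strand, 16 merged exons). It had 69.7, 52.9 and 49.6 CPM in control replicates 1 to 3 and 57.8, 44.3 and 48.5 in *daf-16(0)* replicates 1 to 3. Both *daf-16(0)* libraries of the deposited comparison lay below both of its controls, but *daf-16(0)* replicate 1 lay above control replicates 2 and 3. Control averaged 57.4 ± 10.8 CPM against 50.2 ± 6.9 CPM for *daf-16(0)* (SD, n = 3 each). The log2 difference was -0.38 in the 4 libraries (SE 0.30, adjusted p = 0.389 by edgeR) and -0.19 in all 6 (SE 0.28, adjusted p = 0.676). The sign was negative in every alternative tried. *pqn-32* lies within the span of *rict-1* on the other strand (chromosome II, 13108019 to 13110169), shares no exon base with it, and had 1242 to 3956 counts against 403 to 966 for *rict-1*. *pqn-32* had a log2 difference of -1.24 in the 4 libraries (adjusted p = 0.0605 by edgeR) and -0.79 in all 6 (adjusted p = 0.189), and its part in the *rict-1* value was not tested. The start of *col-86*, a collagen gene with at most 40 counts, overlaps the end of *rict-1* on the same strand, with 37 shared exon bases.

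Among the GTPases that bring TORC1 to the lysosome and turn it on, *raga-1* and *ragc-1* encode the partners of the Rag heterodimer. *raga-1* (WBGene00006414, chromosome II, 11301359 to 11302783, forward strand) had 70.7, 69.1 and 52.9 CPM in control replicates 1 to 3 and 65.9, 90.6 and 79.9 in *daf-16(0)* replicates 1 to 3. Here *daf-16(0)* replicate 1 fell below control replicates 1 and 2, while the other *daf-16(0)* libraries were above every control. The means were 64.2 ± 9.86 in control and 78.8 ± 12.4 in *daf-16(0)* (SD, n = 3 each), and the log2 difference was 0.31 in the 4 libraries (SE 0.28, adjusted p = 0.453 by edgeR) and 0.30 in all 6 (adjusted p = 0.504).

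*ragc-1* (WBGene00012497, chromosome IV, 11603613 to 11604927, reverse strand) had 55.8, 47.6 and 62.3 CPM in control replicates 1 to 3 and 77.7, 79.5 and 64.2 in *daf-16(0)* replicates 1 to 3. It was the only one of the 7 genes in which every *daf-16(0)* library was above every control, an order found in either direction in 40.9% of all genes tested (21.3% higher and 19.6% lower). The gap was small, 64.2 against 62.3 CPM. Control averaged 55.2 ± 7.34 CPM against 73.8 ± 8.36 CPM for *daf-16(0)* (SD, n = 3 each), a fitted fold of 1.41 in the 4 libraries and 1.33 in all 6. By edgeR the log2 differences were 0.49 (SE 0.29, adjusted p = 0.267) and 0.42 (SE 0.26, adjusted p = 0.325), and *ragc-1* stayed uncalled, with a positive sign, under every alternative. The sperm gene sums were also without overlap and higher in *daf-16(0)* (above), while the germ line sums overlapped, and their part in this value was not tested.

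*rheb-1* (WBGene00010038, chromosome III, 9454163 to 9456030, reverse strand) encodes the GTPase that activates TORC1. It had the fewest counts of the 7 genes, with 18, 25.9 and 18.1 CPM in control replicates 1 to 3 and 36.4, 22.1 and 17.2 in *daf-16(0)* replicates 1 to 3. The highest and the lowest library were both *daf-16(0)*. The means were 20.7 ± 4.52 in control and 25.2 ± 9.96 in *daf-16(0)* (SD, n = 3 each). The log2 difference was -0.15 in the 4 libraries (SE 0.40, adjusted p = 0.814 by edgeR) and 0.29 in all 6 (SE 0.40, adjusted p = 0.661). All 6 without *daf-16(0)* replicate 1 gave -0.07. The sign also turned within the 4 libraries, which do not hold that library. It was 0.14 there without control replicate 2 and 0.04 without *daf-16(0)* replicate 3.

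*rsks-1* encodes the S6 kinase, a TORC1 substrate that promotes translation (WBGene00012929, chromosome III, 11245120 to 11252281, forward strand). Control replicates 1 to 3 had 171, 161 and 98.8 CPM, and *daf-16(0)* replicates 1 to 3 had 146, 125 and 140 CPM. The *daf-16(0)* libraries lay close together between the controls, with control replicate 3 far below the rest. Means were 144 ± 39 in control and 137 ± 10.9 in *daf-16(0)* (SD, n = 3 each). The log2 difference was -0.31 in the 4 libraries (SE 0.28, adjusted p = 0.456 by edgeR) and -0.07 in all 6 (SE 0.30, adjusted p = 0.899), and -0.26 in all 6 without control replicate 3.

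**Figure D2:**
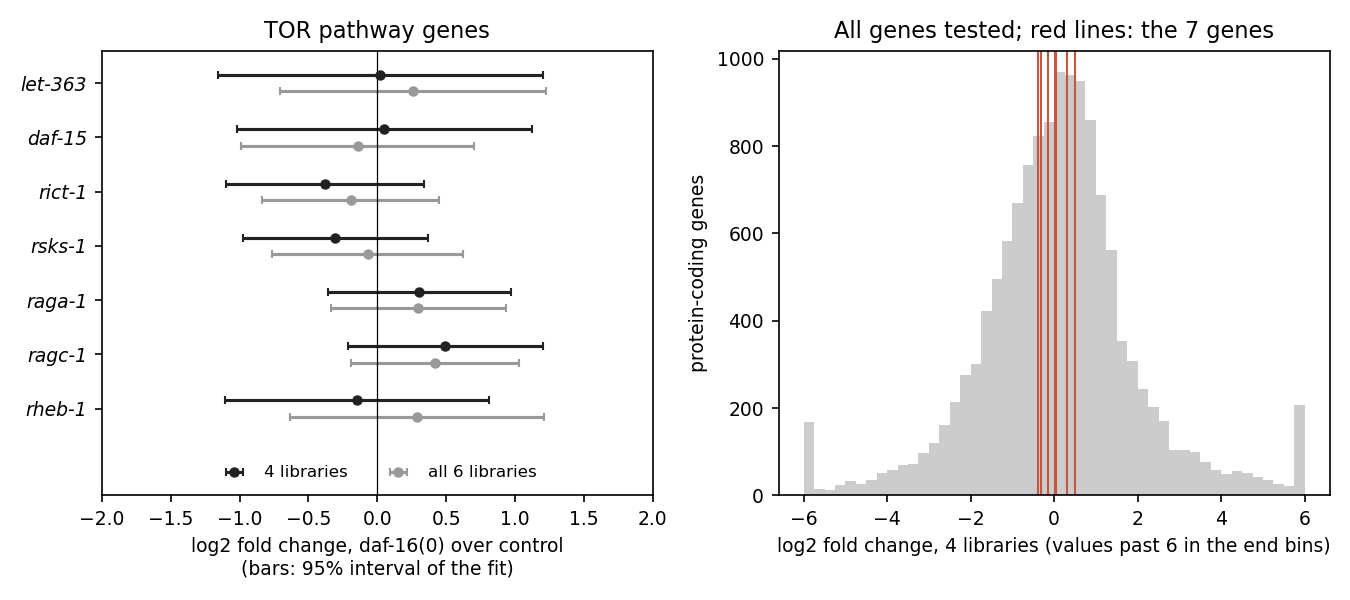
Left, log2 difference of *daf-16(0)* over control with its 95% interval for the 7 genes, in the 4 libraries (black) and all 6 (grey). Right, the number of protein-coding genes by log2 difference in the 4 libraries, with the 7 genes as red lines between -0.38 and 0.49, near the centre of the distribution.

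The fitted differences of the 7 genes were small beside those of all genes tested. Those genes were not matched to the 7 for counts. Their median SE was 0.51 in the 4 libraries, against 0.28 to 0.49 for the 7, so the ranks below are descriptive. The intervals of the 7 still reached from a fold of 0.449 (*let-363*) to 2.30 (*ragc-1*), so larger differences are not excluded. The median absolute log2 difference over all genes tested was 0.99 in the 4 libraries. The share of genes with a smaller change than a given member ran from 1.12% for *let-363* to 26.4% for *ragc-1*. In the 4 libraries the genotypes did not overlap in 4 of the 7 (*rict-1* and *rsks-1* lower, *raga-1* and *ragc-1* higher), against 70% of all genes (36.7% higher and 33.2% lower). Most genes showed such an order with 2 libraries a side.

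The members also differed in how steady they were among libraries of 1 genotype. The pooled within-genotype SD of log2(CPM + 0.5) over all 6 libraries was 0.18 for *ragc-1*, and only 3.48% of genes tested had a smaller one. *rict-1* and *raga-1* followed at 0.23 each, then *rsks-1* at 0.32, *rheb-1* at 0.43, *daf-15* at 0.47 and *let-363* at 0.59, close to the median of all genes (0.61). By this pooled SD *let-363* and *daf-15* ranked highest of the 7, an order that was not tested. It was not the same in each genotype. In control the SD was 0.31 for *daf-15*, below 0.43 for *rsks-1*, and in *daf-16(0)* it was 0.59 for *daf-15* and 0.12 for *rsks-1*. The relative counting error was at most 8.87% for any member (*rheb-1* in control replicate 1, 127 counts) and at most 3.62% for *let-363*.

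Per length, the GTPases of the Rag pair and the S6 kinase were several times more abundant than the subunits of the complexes. CPM per kb of merged exon in control averaged 50.7 ± 7.79 for *raga-1*, 50.2 ± 6.67 for *ragc-1* and 47.1 ± 12.8 for *rsks-1* (SD, n = 3 each). These 3 neighbours did not differ beyond their spread. *rheb-1* followed at 17.3 ± 3.79 CPM per kb, *daf-15* at 15.7 ± 3.19, *let-363* at 13.7 ± 6.43 and *rict-1* at 11.4 ± 2.15, each within the spread of the next. The lowest value in the upper 3, 32.4 in control replicate 3 for *rsks-1*, was above the highest in the lower 4, 21.7 in control replicate 2 for *rheb-1*. In *daf-16(0)* the same 3 genes were above the other 4, at 40.9 CPM per kb or more against 30.5 or less. Mean levels there were 67 ± 7.59 for *ragc-1*, 62.2 ± 9.79 for *raga-1*, 44.9 ± 3.56 for *rsks-1*, 21.1 ± 8.36 for *rheb-1*, 16.4 ± 5.57 for *let-363*, 14.2 ± 6.17 for *daf-15* and 9.99 ± 1.37 for *rict-1* (SD, n = 3 each). In control, 83.4% of the genes tested had a lower level per length than *raga-1*, and 49.5% had a lower one than *rict-1*.

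**Figure D3:**
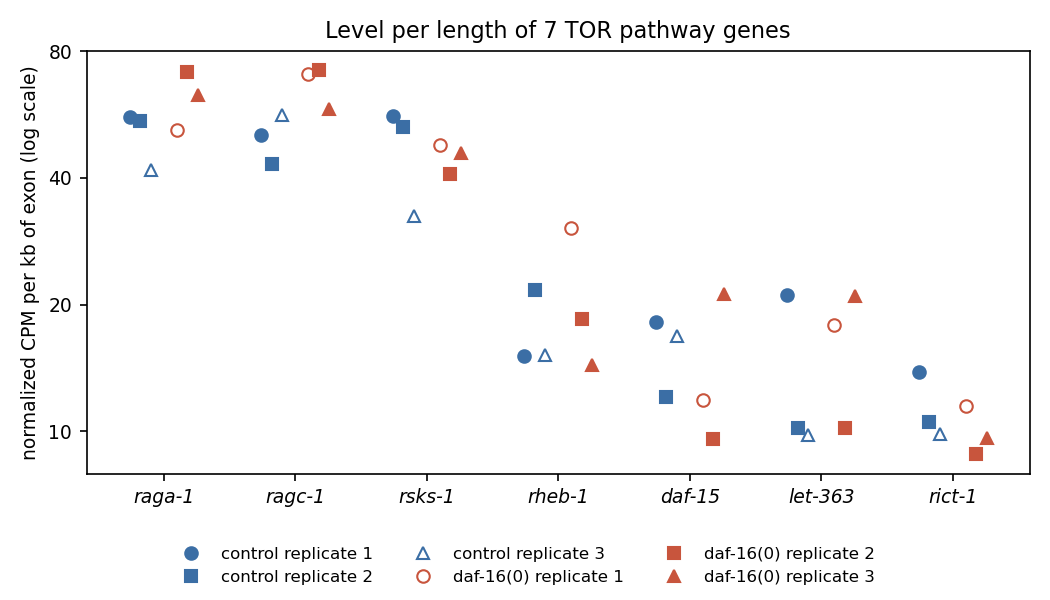
Normalized CPM per kb of merged exon (log axis) of the 7 genes, ordered by their control mean, with 3 control (blue) and 3 *daf-16(0)* (red) libraries each. *raga-1*, *ragc-1* and *rsks-1* lie at 32.4 or above and the other 4 genes at 30.5 or below in every library.

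A ratio of 2 genes within a library does not depend on how libraries were scaled to each other, and 6 such ratios of partners were compared. The ratio of Raptor to kinase counts, *daf-15* over *let-363*, was 0.592, 0.817 and 1.18 in control replicates 1 to 3 and 0.455, 0.646 and 0.695 in *daf-16(0)* replicates 1 to 3. Only *daf-16(0)* replicate 1 lay below every control. On the log2 scale the means were -0.27 ± 0.50 in control and -0.76 ± 0.33 in *daf-16(0)* (SD, n = 3 each), a difference of -0.49 (two-sided exact permutation test, p = 0.3, adjusted p = 0.75 over the 6 ratios). In the 4 libraries alone the difference was -0.05, so most of it came with the libraries outside the deposited comparison.

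The Rictor to kinase ratio, *rict-1* over *let-363*, was 0.386, 0.607 and 0.592 in control replicates 1 to 3 and 0.377, 0.508 and 0.269 in *daf-16(0)* replicates 1 to 3, a log2 difference of -0.48 (exact permutation p = 0.2, adjusted p = 0.75). Raptor against Rictor, *daf-15* over *rict-1*, gave 1.53, 1.34 and 2 in control and 1.21, 1.27 and 2.58 in *daf-16(0)*, with a log2 difference of -0.02 (exact permutation p = 1). The balance between the subunits specific to the complexes thus spanned a wider range within *daf-16(0)* than it differed between genotypes. For the Rag partners, *raga-1* over *ragc-1*, the ratios were 1.27, 1.45 and 0.848 in control replicates 1 to 3 and 0.848, 1.14 and 1.24 in *daf-16(0)* replicates 1 to 3, a log2 difference of -0.12 (exact permutation p = 0.5). *rsks-1* and *rheb-1* over *let-363* differed by -0.32 (exact permutation p = 0.5) and -0.05 (p = 0.9, exact permutation). With 3 libraries against 3 the smallest p these tests allow is 0.1, and the genotypes overlapped in all 6 ratios.

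**Figure D4:**
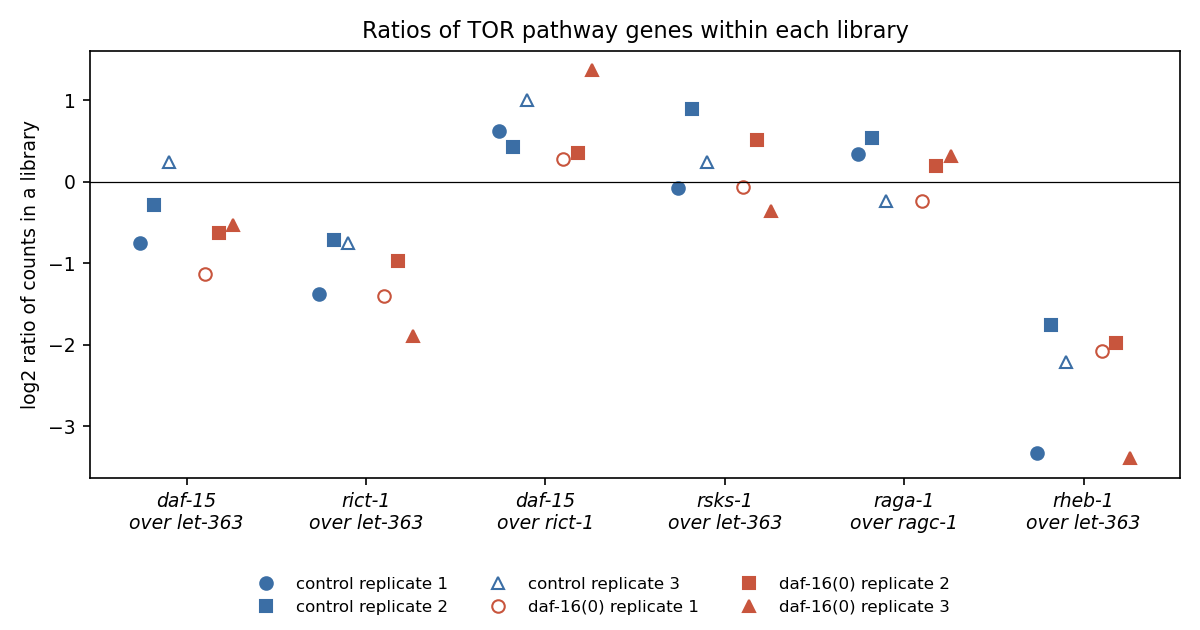
Log2 ratio of the counts of 2 genes within a library (vertical axis) for 6 pairs, with 3 control (blue) and 3 *daf-16(0)* (red) libraries each. The genotypes overlap in each pair, and *rheb-1* over *let-363* spreads most, with *let-363* high and *rheb-1* low in control replicate 1 and *daf-16(0)* replicate 3.

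The genes whose levels across the 6 libraries were most like that of *daf-15* were *coh-1*, *crn-7* and *ZC190.4*. Their centred log2(CPM + 0.5) values differed from those of *daf-15* by a root mean square of 0.09, 0.11 and 0.15, where the median over the 8807 genes with at least 10 CPM was 0.72. *coh-1* encodes a cohesin subunit of the kleisin family and *crn-7* a nuclease of the cell-death-related group. Nearest to *let-363* were *W07G4.3*, *pod-1*, an actin-binding protein of the coronin family, and *rom-4*, a rhomboid-related gene, at 0.10, 0.12 and 0.12. *let-363* stood at place 681 in the list for *daf-15*, at a distance of 0.42. With 6 libraries of 2 genotypes, these are descriptions only.

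Around the 7 genes, 44 other genes of the pathway were measured, in 5 lists by role. In the 4 libraries 2 of the 44 were called higher and 7 lower, where 5.37% and 9.59% of all genes were. In all 6 libraries 0 were higher and 7 lower, where 5.08% and 7.39% of all genes were. The 7 lower genes were not the same in both sets: *pha-4* was called only in the 4 libraries and *bec-1* only in all 6. The median log2 difference over the 44 was 0.07 in the 4 libraries, beside 0.11 for all genes. No member of the 7 was called while these were, but whether the 7 differ from the 44 was not tested.

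Of the 10 genes on the insulin and AMPK list 3 were called, *pdk-1*, *akt-1* and *akt-2*, all lower, where 9.59% of all genes were called lower. They encode the kinases that carry the insulin signal from PI3K. *akt-1* had 371, 360 and 317 CPM in control replicates 1 to 3 and 92.8, 64.6 and 62.3 in *daf-16(0)* replicates 1 to 3, with no overlap. Its log2 difference was -2.51 in the 4 libraries (SE 0.30, adjusted p = 0.00704 by edgeR), and it was called under all 19 alternatives. *pdk-1* had 81.8, 95.1 and 32.8 CPM in control and 10.7, 11.3 and 7.86 in *daf-16(0)*, a log2 difference of -3.19 (SE 0.35, adjusted p = 0.00656 by edgeR), and *akt-2* one of -2.10 (SE 0.35, adjusted p = 0.0155). *pdk-1* lost its call only without *daf-16(0)* replicate 2 of all 6 libraries. *akt-2* lost it there and without the same library of the 4. *daf-2*, the insulin receptor, was at -0.89 (adjusted p = 0.252 by edgeR) and *aak-2*, an AMPK catalytic subunit, at -0.64 (adjusted p = 0.171). *age-1* and *strd-1* were at -0.44 and -0.25 (adjusted p of 0.334 and 0.702). The rest of the list went the other way, with *daf-18* at 1.72, *aak-1* at 0.61 and *par-4* at 0.59 (adjusted p of 0.103, 0.283 and 0.34 by edgeR).

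Of the 5 other subunits and assembly factors, *mlst-8*, the worm LST8 of both complexes, had a log2 difference of 0.55 (adjusted p = 0.447 by edgeR) and *sinh-1*, the SIN1 subunit of TORC2, one of 0.57 (adjusted p = 0.594). *ruvb-2*, an AAA+ ATPase whose mammalian relative helps assemble TOR-family kinases, was the 1 called gene, where 5.37% of all genes were called higher. It had 18.3, 11.5 and 33.6 CPM in control replicates 1 to 3 and 66.9, 46.8 and 42.9 in *daf-16(0)* replicates 1 to 3, with no overlap and a log2 difference of 1.61 in the 4 libraries (SE 0.37, adjusted p = 0.0367). In all 6 libraries it was 1.3 and not called (adjusted p = 0.0896). Its partner *ruvb-1* was at 0.92 (adjusted p = 0.0927).

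On the amino acid sensing list 1 of 10 genes was called, a lower one, near the 9.59% of all genes called lower. *flcn-1*, the worm folliculin, which in mammals acts on a Rag GTPase, had 171, 189 and 105 CPM in control replicates 1 to 3 and 37.6, 53.1 and 47.8 in *daf-16(0)* replicates 1 to 3. It was lower in the 4 libraries (log2 difference -1.82, SE 0.29, adjusted p = 0.0137 by edgeR) and in all 6 (-1.75, SE 0.33, adjusted p = 0.0171). The Ragulator genes *lmtr-2*, *lmtr-3* and *lmtr-5*, which anchor the Rag GTPases, were at -0.02, 0.07 and 0.07, and the GATOR1 genes *nprl-2* and *nprl-3* at 0.73 and 1.14 with adjusted p of 0.306 and 0.283 by edgeR. *sesn-1*, a sestrin, was at -0.80 (adjusted p = 0.108). The rest of the list was higher and not called, with *npp-18* at 1.5, *npp-20* at 0.74 and *fnip-2* at 0.42 (adjusted p of 0.0736, 0.123 and 0.466 by edgeR).

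Among the outputs, 4 of the 9 genes on the autophagy, kinase and transcription factor list were called, 1 higher and 3 lower, where 5.37% and 9.59% of all genes were. *sgk-1*, the kinase downstream of TORC2, had 13.6, 22.8 and 0.205 CPM in control replicates 1 to 3 (4 counts in the last) and 96, 80.2 and 79.1 in *daf-16(0)* replicates 1 to 3. Its log2 difference was 2.14 in the 4 libraries (SE 0.37, adjusted p = 0.0168 by edgeR). In all 6 it was 2.82 and not called (SE 1.11, adjusted p = 0.132), with control replicate 3 far below the other controls. Lower were *skn-1*, an Nrf-type stress factor (-1.55, adjusted p = 0.0323), *pha-4*, a FOXA factor (-1.54, adjusted p = 0.032), and *lgg-1*, the ubiquitin-like protein of autophagosomes (-1.36, adjusted p = 0.0381 by edgeR). In all 6 libraries *skn-1* and *lgg-1* were called (adjusted p of 0.0347 and 0.0447) and *pha-4* was not (0.112), with control replicate 3 at 26.6 CPM, below *daf-16(0)* replicate 3. *bec-1*, the worm Beclin, was at -1.05 with an adjusted p of 0.0654 in the 4 libraries and 0.0369 in all 6.

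Of the 10 translation genes 0 were called by edgeR in either set of libraries. At an unadjusted p of 0.05 the counts were 5 of 10 in the 4 libraries and 1 of 10 in all 6, where 36% and 30.1% of all genes passed. Their median log2 difference was 0.78 in the 4 libraries and 0.62 in all 6, beside 0.11 and 0.09 for all genes. *rps-6*, the ribosomal protein that S6 kinase phosphorylates, was at 1.17 (adjusted p = 0.0972), *ife-3*, an eIF4E, at 1.5 (adjusted p = 0.0668), and *efk-1*, the elongation factor kinase, at -0.18 (adjusted p = 0.76). For 8 genes of the 10, *daf-16(0)* replicates 2 and 3 were above both controls, an order that 36.7% of all genes showed. Over all 6 libraries it held in 4 of the 10, where 21.3% of all genes showed it.

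**Figure D5:**
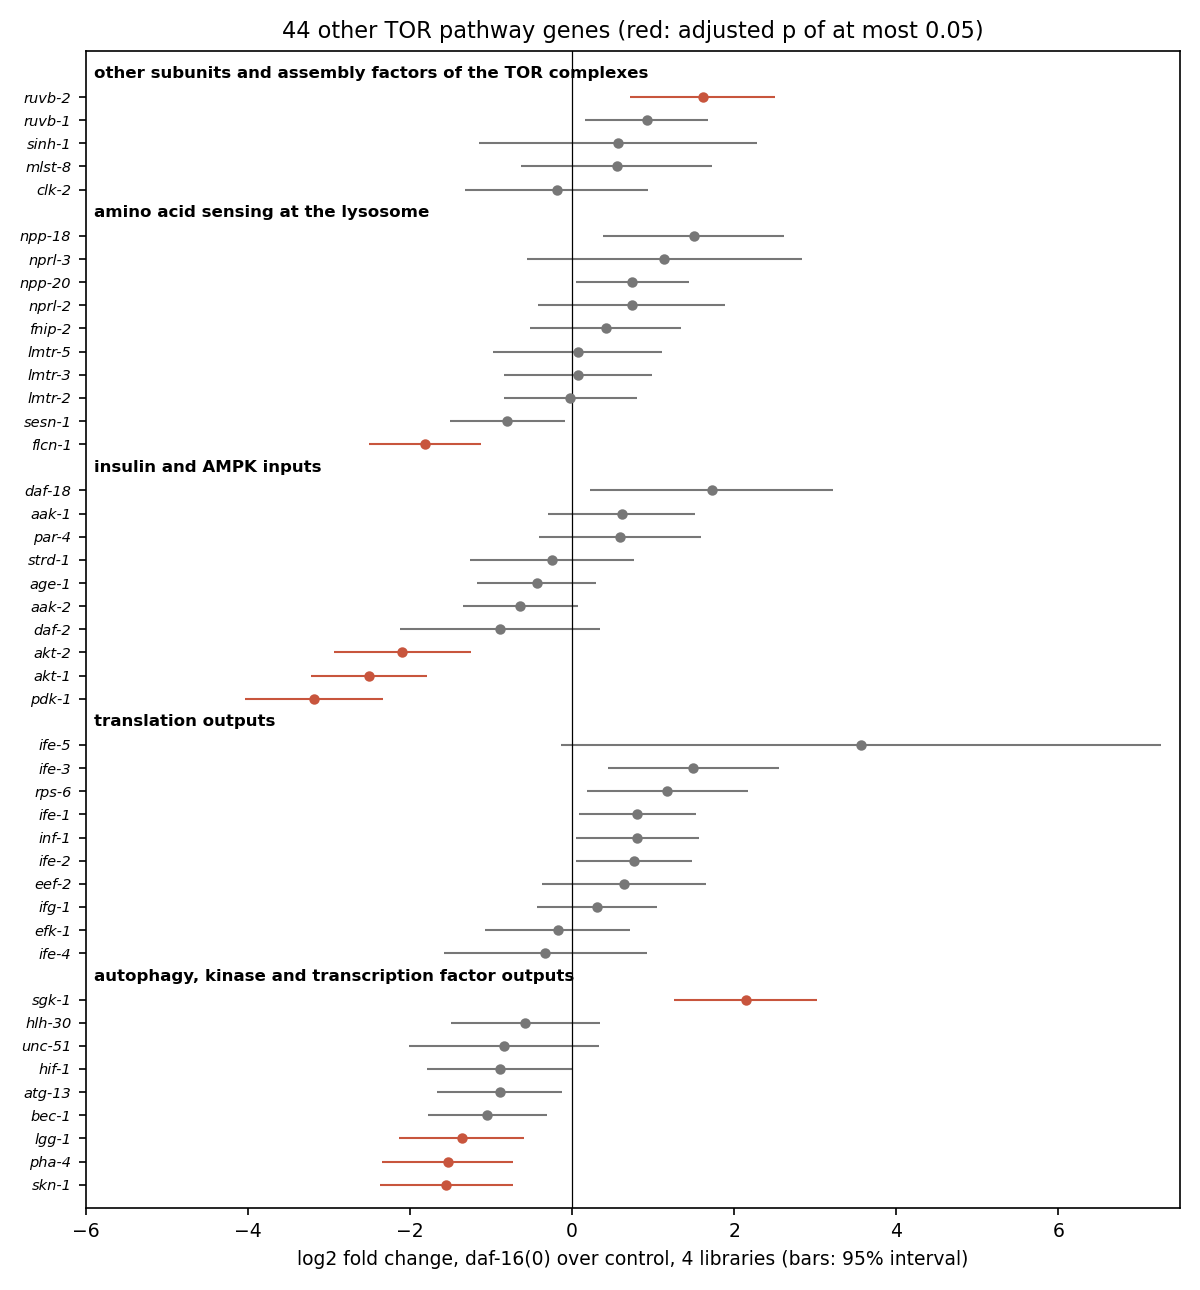
Log2 difference in the 4 libraries, with 95% interval, of 44 other pathway genes in 5 lists, red where the adjusted p was at most 0.05. The 7 red genes to the left are *pdk-1*, *akt-1*, *akt-2*, *flcn-1*, *skn-1*, *pha-4* and *lgg-1*, and the 2 to the right are *sgk-1* and *ruvb-2*.

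Leaving out 1 library changed most of these calls, and it also changed the number called over all genes. Whether these genes lost their calls more often than other genes was not tested. Of the 9 genes called in the 4 libraries, 2 kept the call without *daf-16(0)* replicate 2 (*pdk-1* and *akt-1*), 3 without *daf-16(0)* replicate 3 (these and *akt-2*), 7 without control replicate 2 and 9 without control replicate 1. In all 6 libraries 6 of the 9 were called, against 9 without control replicate 3 and 1 (*akt-1*) without *daf-16(0)* replicate 2. Over all genes these 3 fits called 1701, 2942 and 295 genes. All 9 kept their sign in each of the 19 alternatives.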

How the data were processed

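Paired-end reads of mRNA libraries were processed by the authors with Trimmomatic 0.39, STAR 2.4.2a on WBcel235 and RSEM 2.1. The expected counts deposited by the authors are per gene, not normalized, for 6 libraries. A deposited signal table holds normalized counts of 4 libraries, the rounded counts over 1 DESeq2 size factor each, checked on the values. Another table holds the authors' DESeq2 fold changes and p-values and was not used.

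Expected counts of 20191 protein-coding genes were rounded to whole numbers (1.57% to 2.78% of values were not whole) and tested with edgeR 4.0.16 in R 4.3.3 (TMM, filterByExpr, quasi-likelihood, Benjamini-Hochberg over all genes, call at an adjusted p of at most 0.05). Standard errors are the fold change over the root of its F, and 95% intervals use its t quantile. CPM used TMM factors over 6 libraries. Counting errors cover sampling only. Depth was 8103772 to 17808548 counts per library. The labels state a pair of biological replicates per strain for 3 deposited libraries, and which libraries came from separate cultures is not given, so p-values measure the spread between these libraries, which may in part be technical. Lengths came from Ensembl 115 (20105 genes matched). Of 78 listed symbols outside the sperm genes 75 were matched, and *lst-8*, *wdr-24* and *epg-1* were not. As alternatives, each library was left out in turn, and fits were made on all 6 libraries, with and without a replicate block, with DESeq2 1.42.0, with limma 3.58.1 (pseudocount 1), with RLE scaling, with no filter or a mean of at least 10 counts, over all biotypes and with an absolute log2 difference of at least 1. Named genes are the 7 members, up to 4 called genes per list by size of change, genes overlapping a member, and the 3 nearest patterns to *daf-15* and *let-363*. Uncalled genes and *bec-1* were added after their values were seen. Members and lists were chosen with earlier results of these data known. The scripts were tested on simulated data.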

Additional observations from a re-analysis of the deposited data

How the results depend on the processing

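The count of 0 of the 7 TOR pathway genes called was the same under every alternative, while counts over all genes and the other pathway genes were not. The alternative with an absolute log2 difference of at least 1 could only lower a count, so it could not change 0. Leaving out a library mostly lowered the total called. From 1701 genes in all 6 libraries it fell to 295 without *daf-16(0)* replicate 2, but rose to 2942 without control replicate 3. Over all genes, 727 were called higher and 1298 lower in the 4 libraries, with 250 and 305 in all 6 with a replicate block, 1626 and 2072 with DESeq2 on the 4, 1644 higher with DESeq2 on all 6, and 1626 and 1974 with no filter on low counts. Leaving out 1 library gave 125 to 1914 higher and 170 to 1675 lower. Among the 44 other pathway genes, 2 higher became 0 in all 6 libraries, 0 in all 6 with the block, 6 with DESeq2 on the 4 and 5 with no filter, and 0 to 9 with 1 library left out. Their 7 lower became 3 with the block and 1 to 8 with 1 library left out.

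Signs of small, uncalled differences turned. *daf-15* (0.05) was -0.14 in all 6 libraries, -0.19 with the replicate block, -0.14 with DESeq2 on all 6 and -0.043 with limma, and ran from -0.61 to 0.54 with 1 library left out. *rheb-1* (-0.15) was 0.29, 0.24 and 0.28 in the first 3 of these, with -0.39 to 0.50 on leaving out 1. With 1 left out, *let-363* ran from -0.56 to 0.72 and *rsks-1* from -0.37 to 0.084. The *daf-15* over *rict-1* difference of -0.02 was 0.34 in the 4 libraries and -0.37 to 0.18 with 1 left out, *raga-1* over *ragc-1* ran from -0.35 to 0.039 and *rheb-1* over *let-363* from -0.50 to 0.40. The cause was not tested. *rict-1*, *raga-1* and *ragc-1* kept their sign throughout.

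Same-numbered libraries share only a number: their deviations from the genotype means correlated at -0.05, -0.01 and -0.22, and 555 genes were called with the block against 1701 without it in all 6, with 14650 and 13633 genes past the filter, so design and filter changed together. The 4 libraries share 1 number, so no block was possible there. A fit with 1 library left out of the 4 assumes that the lone library varies like the others. With this replication, 95% intervals of the 7 genes reached folds of 0.449 and 2.33 in the edgeR fits on the 4 libraries and on all 6 without the block. With the block they reached a fold of 2.61 (*rheb-1*).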
